A study of Mus musculus with 15 samples.

Results

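The 10 genes described here belong to the Notch pathway. They are the receptors Notch1 and Notch2, the ligands Dll1 and Jag1, the transcriptional targets Hes1, Hes5, Hey1, Hey2 and Heyl, and the target and feedback inhibitor Nrarp. They were chosen by name, and each is the only gene symbol of its array row. Of 22180 genes measured in this way, all 10 were found. Hes5 and Dll1 each had a further row, and the row with the highest mean stood for the gene.

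The 15 libraries are RNA from the cerebella of newborn C57BL/6 mice, in 3 groups of 5, hybridised to 1 array each. The group labelled DKO is described as lacking the kinase Gsk-3 (glycogen synthase kinase 3), alpha as well as beta, in its cerebellar granule neuron progenitors (CGNPs). The Math1-Cre control is described as Gska+-, GskBff with M1Cre, with Gsk-3 beta alone given as deleted. The no-Cre control is described as Gska+-, GskBff without Cre and as having intact Gsk-3. For no-Cre library 5 the description leaves out the Gsk3b genotype. The labels do not give the alleles of the DKO animals, nor whether the altered Gsk3a allele, which both controls carry on 1 chromosome, is a germline null. Math1 (Atoh1) is the promoter that drives Cre, so deletion is limited to the granule lineage and other cells that use this promoter, while the RNA comes from dissociated whole cerebellum. The design text describes enrichment of CGNPs on a density gradient. The labels give postnatal day 1 as the age and, in the growth protocol, postnatal day 2.

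Notch receptors are cleaved when a ligand on a neighbouring cell binds them, and the freed intracellular part enters the nucleus, where it joins the DNA-binding protein RBPJ and switches on HES and HEY genes. HES and HEY proteins are basic helix-loop-helix repressors that hold back neuronal differentiation genes. In the developing cerebellum the pathway is known for keeping progenitors and Bergmann glia in an undifferentiated or glial state, and in blood vessels it acts in endothelial and mural cells. Gsk-3 is known to phosphorylate Notch intracellular domains and to mark beta-catenin, the mediator of WNT signalling, for destruction.

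RBPJ binds the motif TGGGAA, so the bases before the start of each member were searched for it on both strands. RefSeq start windows of assembly GRCm38.p6 matched 7 of the 10 members by symbol, and Dll1 had a pair of starts, which gave 8 windows of 250 bases. The motif was in 2 of these 8 windows, and in 21.6% of all 32851 windows of the same length. These 2 are shown because they hold a match, and both belong to target genes. Capitals mark the motif or its reverse complement.
Hes5: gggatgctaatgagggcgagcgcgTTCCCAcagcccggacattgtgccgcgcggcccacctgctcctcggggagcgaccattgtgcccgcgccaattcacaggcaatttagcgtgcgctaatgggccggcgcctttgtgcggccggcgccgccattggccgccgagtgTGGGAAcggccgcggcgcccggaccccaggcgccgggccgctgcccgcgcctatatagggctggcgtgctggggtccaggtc
Hey2: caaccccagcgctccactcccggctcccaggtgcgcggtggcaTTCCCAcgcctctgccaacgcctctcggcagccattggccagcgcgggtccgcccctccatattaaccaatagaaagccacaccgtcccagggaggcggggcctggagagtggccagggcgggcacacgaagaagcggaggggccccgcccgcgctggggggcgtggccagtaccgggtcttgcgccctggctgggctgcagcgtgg
The Hes5 window is chr4:154960673-154960922 on the plus strand, with motifs that begin 226 and 82 bases before the start. The Hey2 window is chr10:30842784-30843033 on the minus strand, with a motif that begins 207 bases before the start. A match is a description of these letters and not a binding site. The windows of Dll1, Jag1, Notch1, Notch2 and Nrarp, a target as well, held no match. Hes1, Hey1 and Heyl had no window to search.

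Values are log2 expression as deposited, so a difference of 1 is a doubling. Differences carry the standard error (SE) of a limma model fitted to all genes, and p-values are adjusted by Benjamini-Hochberg over all 22180 genes, with a threshold of 0.05. The row annotated to Gsk3a, a targeted gene, went against the label in 4 libraries. It was below 9.0 in DKO 2, 4 and 5, where it lay at 7.89 to 8.27, and in Math1-Cre 1 and 2, at 8.25 and 8.03. In the other 10 libraries it lay at 9.37 to 9.59, DKO 1 (9.47) and DKO 3 (9.37) among them. The value just under 9.0 was 8.27 in DKO 5 and the value just over it was 9.37 in DKO 3. Each comparison is therefore given over 15 libraries by label and over the 11 that remain without DKO 1, DKO 3, Math1-Cre 1 and Math1-Cre 2. No library was moved to another group. Fewer cells of a type and less RNA per cell cannot be told apart in these bulk samples. On each array the median of 1394 olfactory and vomeronasal receptor genes, which are not expected in this tissue, was taken as background and lay at 3.50 to 4.11. In every library 9 of the 10 members were above the 95th percentile of those genes. Heyl was above it in 12 libraries and not in DKO 3, DKO 5 and no-Cre 4, so its differences can be compressed.

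Among the 10 genes, Hey1 was the only one that passed the test in any of these comparisons. Over 11 libraries Hey1 in DKO differed from the no-Cre control by -0.74 ± 0.11 (SE) on the log2 scale and was 1.67-fold lower. The difference from the Math1-Cre control was -0.67 ± 0.12, or 1.59-fold lower. The receptors, the ligands, Hes5, Hey2, Heyl and Nrarp did not pass in any of the 6 fits. Hes1 did not pass either, although its DKO libraries lay under those of the Math1-Cre control.

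**Figure D1:**
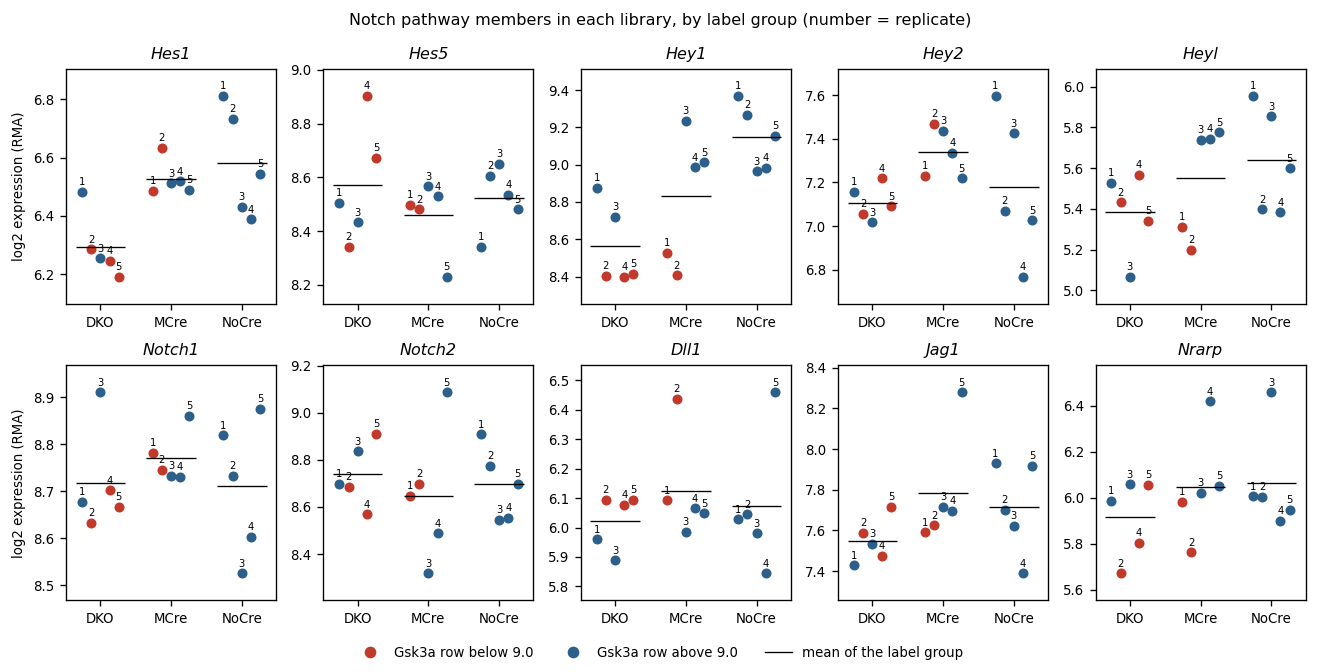
Log2 expression of each of the 10 members (y axis, a separate scale per gene) in the 15 libraries, by label group on the x axis; red points have a Gsk3a row below 9.0, blue points above, numbers are replicates and lines are group means. In the Hey1 panel the 5 red points sit at 8.40 to 8.53 and the 10 blue points at 8.72 to 9.37, while in the other panels the colours overlap.

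Hey1, a HEY family repressor and direct Notch target, was at 8.88, 8.40, 8.72, 8.40 and 8.42 in DKO 1 to 5. It was at 8.53, 8.41, 9.24, 8.99 and 9.01 in Math1-Cre 1 to 5, and at 9.37, 9.27, 8.96, 8.98 and 9.15 in no-Cre 1 to 5. All DKO libraries lay under all no-Cre libraries, DKO 1 and 3 included, and the Math1-Cre libraries fell apart, with 1 and 2 beside the lowest DKO libraries and 3, 4 and 5 among the no-Cre libraries. By the Gsk3a row, the 5 libraries below 9.0 held Hey1 at 8.40 to 8.53, with a median of 8.41, and the 10 libraries above held it at 8.72 to 9.37, with a median of 9.00. The sets did not overlap. Of all genes, 1.51% had sets that did not overlap in either direction and 0.843% had the low set under the high set. Hey1 was 1 of the 10 members to do so. Within the DKO label, the libraries with a low Gsk3a row were at 8.40 to 8.42 and the others at 8.72 and 8.88. Within the Math1-Cre label, the libraries with a low row were at 8.41 and 8.53 and the others at 8.99 to 9.24. These sets come from a measured row, so no mean and no test is given between all 5 and all 10 libraries. The 11 libraries were chosen by the same row, and among them every DKO library has a low row and every control library a high row, so label and row cannot be told apart there.

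**Figure D2:**
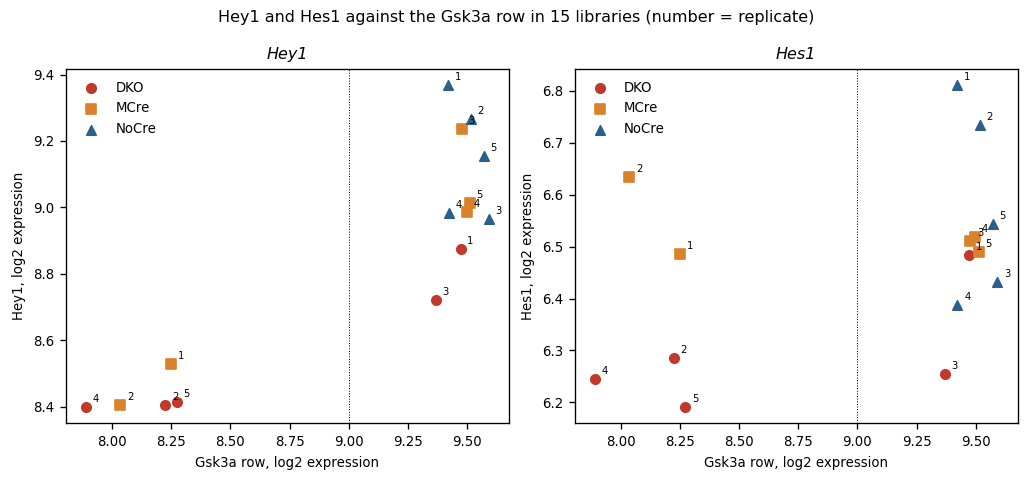
Log2 expression of Hey1 (left) and Hes1 (right) on the y axis against the Gsk3a row on the x axis in 15 libraries; symbols are label groups, numbers are replicates and the dotted line is 9.0. Hey1 lay at 8.40 to 8.53 in the 5 libraries left of the line whatever their label, whereas Hes1 left of the line lay at 6.19 to 6.28 in DKO and at 6.49 and 6.63 in Math1-Cre.

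By label and over 15 libraries, Hey1 was at 8.56 ± 0.22 (SD, n = 5) in DKO, 8.83 ± 0.35 in the Math1-Cre control and 9.15 ± 0.18 in the group without Cre. The difference between DKO and no-Cre was -0.58 ± 0.15 SE (95% confidence interval -0.91 to -0.26, limma adjusted p = 0.0994), so it did not pass. It passed when no-Cre 4 was left out (adjusted p = 0.0382), a fit that called 1546 of all genes against 16 with no-Cre 4. No member passed in this comparison, in which 0.0721% of all genes did, and Hes1 and Hey1 were the 2 members at an unadjusted p under 0.05, as were 17.4% of all genes. DKO minus Math1-Cre was -0.27 ± 0.15 for Hey1 (-0.59 to 0.05, adjusted p = 0.292). Between the controls, Hey1 was at -0.31 ± 0.15 in Math1-Cre relative to no-Cre (-0.63 to 0.0078, adjusted p = 1.00). DKO minus Math1-Cre called 0.55% of all genes and 0 members, with 1 member, Hes1, at an unadjusted p under 0.05 beside 23% of all genes.

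Over the 11 libraries Hey1 was at 8.40 to 8.42 in DKO (n = 3), 9.08 ± 0.14 in the Math1-Cre control (SD, n = 3) and 9.15 ± 0.18 in the group without Cre (n = 5). The difference between DKO and no-Cre was -0.74 ± 0.11 SE (-0.97 to -0.51, limma adjusted p = 0.00635). Hey1 was the 1 member called here, where 1.08% of all genes were called in either direction and 0.64% of all genes as lower in DKO. At an unadjusted p under 0.05 were 2 members, Hey1 and Hes1, and 12.7% of all genes. The call held whichever of the 11 libraries was left out, with adjusted p of 0.00474 to 0.0407. DKO minus Math1-Cre was -0.67 ± 0.12 (-0.93 to -0.41, adjusted p = 0.0308), again the 1 member called, where 0.541% of all genes were called and 0.252% as lower in DKO. Hey1 and Hes1 were again the 2 members at an unadjusted p under 0.05, beside 15.9% of all genes. This second call was lost when any 1 of 8 libraries was left out, namely DKO 2, 4 and 5, Math1-Cre 3, 4 and 5, and no-Cre 2 and 5 (adjusted p = 0.0511 to 0.132). It was also lost after centring each array on its median (-0.53, adjusted p = 0.0632), with the array spread as a covariate (adjusted p = 0.132), with only the groups compared in the fit (0.0667) and with an unexplained code, cg1724, which the descriptions of the 3 replicate 5 libraries carry, as a covariate (0.0524). The comparisons share the DKO libraries, so they are not independent of each other. Math1-Cre minus no-Cre was -0.07 ± 0.11 for Hey1 (-0.30 to 0.16, adjusted p = 1.00).

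Other measures moved with Hey1. The 8 listed markers of granule neuron progenitors, all measured, had a mean log2 value of 7.66 to 7.91 in the 5 libraries with a low Gsk3a row and of 8.09 to 8.57 in the other 10. Among them Atoh1, the transcription factor of these progenitors (-0.80 ± 0.17, adjusted p = 0.0495), Mycn (-0.64 ± 0.12, adjusted p = 0.0296) and Nhlh1 (-1.20 ± 0.12, adjusted p = 5.71e-04) were lower in DKO than without Cre over 11 libraries in limma. Of all genes 0.64% were called lower there. Against Math1-Cre over 11 libraries 2 of the 8 were called, both lower, beside 0.252% of all genes. Over 15 libraries 0 of the 8 were called in either DKO comparison. The 10 endothelial markers had a mean of 7.25 to 7.59 in the low set and 7.14 to 7.94 in the high set, and the 8 pericyte and smooth muscle markers 6.76 to 7.06 and 6.47 to 7.25, with Myh11 under the receptor gene 95th percentile in every library. The 12 markers of Bergmann glia, astrocytes and radial glia lay at 8.86 to 9.12 and 8.71 to 9.14. No marker of these 3 lists passed in any fit. The part of granule progenitor content in the Hey1 result was not tested. By label, the endothelial mean lay at 7.14 to 7.59 in DKO, 7.50 to 7.94 in Math1-Cre and 7.34 to 7.89 in no-Cre, and its part in the differences of Hes1, Heyl and Jag1 was not tested. The 7 microglial markers had means of 5.12 to 5.51 in DKO, 5.50 to 6.11 in Math1-Cre and 5.27 to 5.91 in no-Cre. The 6 choroid plexus and ependymal markers had means of 6.98 to 8.31, 7.57 to 8.48 and 7.93 to 8.48. Their part in the differences by label, that of Hes1 included, was not tested. Array spread also varied. In the low set DKO 4 and 5 had interquartile ranges of 3.56 and 3.51 and the other 3 libraries of 3.73 to 3.77. In the high set DKO 3 (3.54) and no-Cre 4 (3.43) were narrow, and DKO 3 had the lowest Hey1 value of that set, 8.72.

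The 3 genes whose pattern over the 15 libraries was most like that of Hey1 were Gas2l3, Mycn and Cip2a. Likeness was measured as the SD over libraries of the gene minus Hey1 in log2 units, among genes at least 0.75 times as variable as Hey1, whose own SD was 0.35. This SD was 0.11 for Gas2l3, 0.12 for Mycn and 0.13 for Cip2a. Mycn, a MYC family transcription factor that is also on the granule progenitor list, lay at 6.69 to 7.11 in the 5 libraries with a low Gsk3a row and at 7.17 to 7.83 in the others. Cip2a, an inhibitor of protein phosphatase 2A, lay at 6.75 to 7.04 and 7.18 to 7.73. Gas2l3, a cytoskeletal linker protein, lay at 7.98 to 8.25 and 8.23 to 9.07, so that its sets overlapped.

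Hes1, a HES family repressor that Notch and other signals induce, separated the labels DKO and Math1-Cre instead of the Gsk3a sets. It was at 6.48, 6.28, 6.25, 6.24 and 6.19 in DKO 1 to 5, and at 6.49, 6.63, 6.51, 6.52 and 6.49 in Math1-Cre 1 to 5. In no-Cre 1 to 5 it was at 6.81, 6.73, 6.43, 6.39 and 6.54. The DKO libraries lay under all Math1-Cre libraries, DKO 1 by a narrow margin, and overlapped the no-Cre libraries 3 and 4. Array spread differed between these labels too. DKO 3, 4 and 5, lowest in Hes1, had interquartile ranges of 3.54, 3.56 and 3.51, and DKO 1 and 2 of 3.74 and 3.73. The Math1-Cre arrays were at 3.75 to 3.82, and no-Cre 4, lowest of its group in Hes1, at 3.43. The cause of the Hes1 pattern was not tested. Over 15 libraries DKO minus Math1-Cre was -0.24 ± 0.09 (SE; limma adjusted p = 0.132) and DKO minus no-Cre was -0.29 ± 0.09 (adjusted p = 0.129). Over 11 libraries these were -0.27 ± 0.11 (adjusted p = 0.296) and -0.34 ± 0.10 (adjusted p = 0.177). Hes1 passed against the no-Cre control when no-Cre 4 was left out, in the 15 libraries (adjusted p = 0.0334) and in the 11 (0.0427), and over 11 libraries with array weights (0.0304). These 3 fits called 1546, 1060 and 2173 of the 22180 genes, against 16 in the fit of all 15 libraries and 239 in that of all 11. DKO minus Math1-Cre passed under no setting, and its size depended on the setting. Apart from leaving out single libraries, it ran from -0.27 to -0.099 over 15 libraries (limma adjusted p of 0.0876 to 0.598). Over 11 libraries it ran from -0.34 to -0.12 (limma adjusted p of 0.0978 to 0.724). The smallest difference in each range, -0.099 and -0.12, came from centring each array on its median. By the Gsk3a row the sets overlapped, at 6.19 to 6.63 and 6.25 to 6.81. Math1-Cre minus no-Cre was -0.05 ± 0.09 over 15 libraries (-0.24 to 0.13). The genes most like Hes1 were Tdp2, Psmc3ip and Lrp5, with SDs of the difference of 0.078 to 0.085.

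Over 15 libraries the groups of 1 member did not overlap in each DKO comparison. This was Hey1 between DKO and no-Cre, where 2.58% of all genes did not overlap (1.96% lower in DKO), and Hes1 between DKO and Math1-Cre, where 6.96% did not (5.51% lower). Between Math1-Cre and no-Cre no member was free of overlap over 15 or 11 libraries, as were 0.55% and 2.25% of all genes. Over 11 libraries Hes1 and Hey1 were lower without overlap in DKO than in no-Cre, beside 7.2% of all genes in either direction and 4.9% lower. Against the Math1-Cre control 5 members did not overlap over 11 libraries. Hes1, Hey1, Heyl and Notch1 were lower in DKO, and Dll1 was higher in the row used here. Of all genes 24.3% did not overlap, 16.9% lower and 7.48% higher. Of these 5 members, only Hey1 passed the test. The further Dll1 row was lower in DKO without overlap between the same libraries, so the direction of Dll1 depends on the row taken.

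Heyl, a HEY family gene known from mural cells of vessels, was at 5.53, 5.43, 5.07, 5.57 and 5.34 in DKO 1 to 5, and at 5.31, 5.20, 5.74, 5.74 and 5.77 in Math1-Cre 1 to 5. The no-Cre libraries ranged from 5.38 to 5.95. As with Hey1, Math1-Cre 1 and 2 were under Math1-Cre 3, 4 and 5, but DKO 3, with a high Gsk3a row, was the lowest of all libraries and had a value below the receptor gene 95th percentile. The Gsk3a sets overlapped, at 5.20 to 5.57 and 5.07 to 5.95. Over 11 libraries DKO minus Math1-Cre was -0.31 ± 0.15 (-0.63 to 0.02, limma adjusted p = 0.335) and DKO minus no-Cre was -0.19 ± 0.13 (-0.48 to 0.10, adjusted p = 0.573).

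Hey2, the third HEY gene, had its lowest value in no-Cre 4 (6.77) and its highest in no-Cre 1 (7.60), so the intact group spanned all others. DKO ranged from 7.02 to 7.22 and Math1-Cre from 7.22 to 7.47. DKO minus Math1-Cre was -0.23 ± 0.12 over 15 libraries (-0.49 to 0.03, limma adjusted p = 0.275) and DKO minus no-Cre was -0.07 ± 0.12 (-0.33 to 0.19).

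Hes5, the HES gene most tied to Notch in neural progenitors and glia, whose start window with 2 RBPJ motifs is printed above, ranged from 8.34 to 8.90 in DKO, 8.23 to 8.57 in Math1-Cre and 8.34 to 8.65 in no-Cre. Its extremes were DKO 4 (8.90) and Math1-Cre 5 (8.23). Hes5 was the member with the highest estimate in DKO, at +0.05 ± 0.10 against no-Cre (-0.03 with the mean of both its rows) and +0.11 ± 0.10 against Math1-Cre over 15 libraries, and +0.12 ± 0.13 and +0.20 ± 0.15 over 11, with limma adjusted p of 0.507 to 0.832. The 95% interval over 11 libraries against no-Cre, -0.17 to 0.40, does not reach the Hey1 difference of -0.74. The further Hes5 row lay at 3.44 to 4.01, at background. The genes most like Hes5 were Cngb3, Pkp1 and Ces5a, with SDs of the difference of 0.105 to 0.108. They too lay at background, at 3.07 to 4.17.

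Nrarp, which binds the Notch intracellular domain and limits signalling, ranged from 5.67 to 6.06 in DKO, 5.76 to 6.42 in Math1-Cre and 5.90 to 6.46 in no-Cre. Its 3 lowest values were in DKO 2 (5.67), Math1-Cre 2 (5.76) and DKO 4 (5.81), all with a low Gsk3a row, while DKO 5 (6.06) and Math1-Cre 1 (5.98) lay among the others. DKO minus Math1-Cre over 11 libraries was -0.32 ± 0.16 (-0.67 to 0.03, limma adjusted p = 0.355) and DKO minus no-Cre was -0.22 ± 0.14 (-0.53 to 0.10, adjusted p = 0.555).

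The receptors varied little between groups. Notch1 ranged from 8.63 to 8.91 in DKO, 8.73 to 8.86 in Math1-Cre and 8.53 to 8.87 in no-Cre, and had the lowest SD over the 15 libraries of all members, 0.11. DKO minus no-Cre was +0.0069 ± 0.08 over 15 libraries (-0.16 to 0.17) and -0.04 ± 0.09 over 11 (-0.25 to 0.16). Notch2 ranged from 8.57 to 8.91 in DKO, 8.32 to 9.09 in Math1-Cre and 8.55 to 8.91 in no-Cre, with both its lowest (Math1-Cre 3) and its highest value (Math1-Cre 5) in the Math1-Cre control. DKO minus no-Cre was +0.04 ± 0.12 over 15 libraries (-0.21 to 0.30) and +0.03 ± 0.16 over 11 (-0.32 to 0.37). Notch1 was most like Megf10, Camk1d and Spag9, and Notch2 most like Igfbp4, Txnip and Gzmf, of which Gzmf lay at background.

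Among the ligands, Dll1, a Delta ligand of neural precursors, ranged from 5.89 to 6.09 in DKO, 5.99 to 6.44 in Math1-Cre and 5.84 to 6.46 in no-Cre. Its highest values were in no-Cre 5 (6.46) and Math1-Cre 2 (6.44). In the row used here, among the 10 libraries labelled with Cre, the 5 with a low Gsk3a row lay at 6.08 to 6.44. The 5 with a high row lay at 5.89 to 6.07, without overlap. Of all genes 2.79% did so, 0.987% with the low set higher and 1.8%, Hey1 among them, with it lower. The no-Cre libraries, at 5.84 to 6.46, overlapped both. DKO minus no-Cre was -0.05 ± 0.11 over 15 libraries (-0.28 to 0.18) and +0.02 ± 0.12 over 11 (-0.24 to 0.27), a direction that changed with the libraries. The further Dll1 row, at 5.15 to 6.09, separated the same Cre-labelled sets in the other direction. It lay at 5.15 to 5.49 where the Gsk3a row was low and at 5.56 to 6.09 where it was high. The direction of Dll1 between these sets therefore depends on the row taken. The further row had its highest value in DKO 1, where the row used here was at 5.96.

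Jag1, the other ligand, is known from Bergmann glia precursors and vessels. It ranged from 7.43 to 7.72 in DKO, 7.59 to 8.28 in Math1-Cre and 7.39 to 7.93 in no-Cre, with Math1-Cre 5 (8.28) the highest library. DKO minus Math1-Cre was -0.23 ± 0.13 over 15 libraries (-0.51 to 0.04, limma adjusted p = 0.287) and -0.31 ± 0.17 over 11 (-0.69 to 0.07, adjusted p = 0.401). The gene most like it was Lamc1, a laminin chain of basement membranes, with an SD of the difference of 0.095, followed by Esm1, which lay at background (3.39 to 4.36), and Iqgap1. The endothelial marker mean was also highest in Math1-Cre 5, at 7.94, beside a Jag1 value of 8.28 in the same library. This was not particular to endothelium. The means of the pericyte and smooth muscle (7.25), meningeal (8.07), microglial (6.11) and choroid plexus and ependymal lists (8.48) were highest in that library too.

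**Figure D3:**
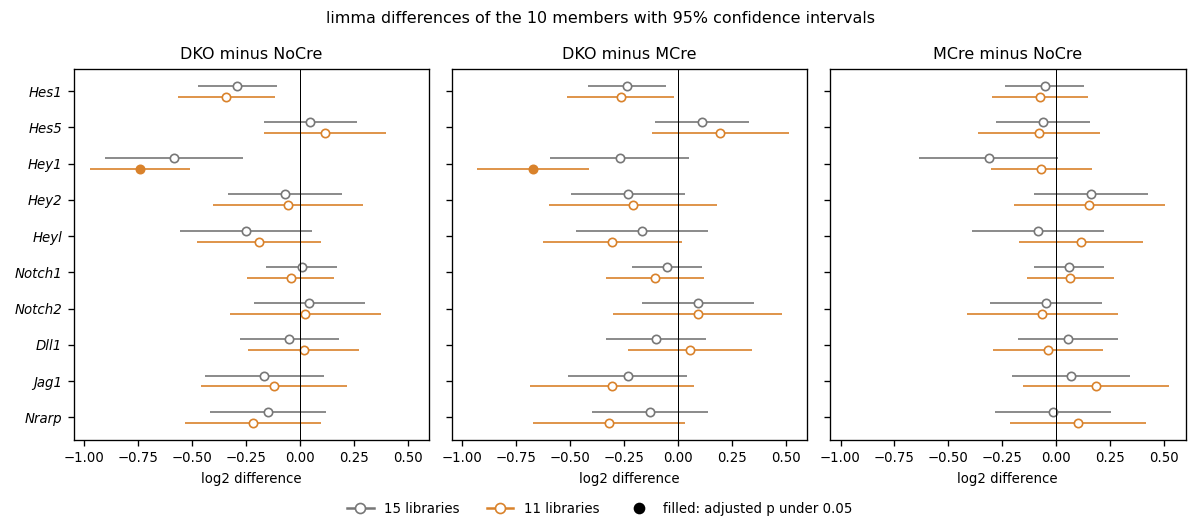
Differences in log2 expression from limma (x axis) with 95% confidence intervals for the 10 members (y axis) in the 3 comparisons, over 15 libraries in grey and 11 libraries in orange; filled points have an adjusted p under 0.05. The 2 filled points are Hey1 over 11 libraries, at -0.74 against no-Cre and -0.67 against Math1-Cre.

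By the labels, Math1-Cre minus no-Cre addresses Cre and the loss of Gsk-3 beta. Over 15 libraries the Math1-Cre group includes libraries 1 and 2, with a low Gsk3a row. No member passed in limma over 15 or 11 libraries, none was at an unadjusted p under 0.05, and 0% of all genes were called, with 3.23% and 2.2% of all genes at an unadjusted p under 0.05. Differences of the members ran from -0.31 (Hey1) to +0.16 (Hey2) over 15 libraries. Over 11 they ran from -0.08 (Hes5) to +0.18 (Jag1). Over the 10 members the median difference was -0.11 in DKO minus no-Cre and -0.15 in DKO minus Math1-Cre over 15 libraries, beside -0.02 and -0.05 over all genes. Over 11 libraries the medians were -0.09 and -0.24, beside -0.02 and -0.06.

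Of 55 other Notch pathway genes listed, 52 were measured and none passed in any of the 6 fits in limma, with a lowest adjusted p of 0.0674, for Aph1a in DKO minus Math1-Cre over 15 libraries. At an unadjusted p under 0.05 were 10 of 52 in DKO minus no-Cre and 11 in DKO minus Math1-Cre over 15 libraries, 8 in each over 11, and 0 in Math1-Cre minus no-Cre. Beside the shares of all genes at that p (17.4%, 23%, 12.7% and 15.9% in the DKO comparisons), these counts are not set apart. Differences were below 0 for 37 of 52 genes in DKO minus no-Cre over 11 libraries, beside 55.9% of all genes. Their median was -0.06, beside -0.02 over all genes. Centring each array on its median moved the median difference of all genes by +0.10 in DKO minus no-Cre and +0.14 in DKO minus Math1-Cre over 15 libraries, so such small shifts depend on the scaling.

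By role, the values that follow are DKO minus no-Cre over 11 libraries, and each had a limma adjusted p of 0.262 or more. Among 6 other ligands Jag2 was at -0.30 ± 0.12 and Dll3, a Delta family member that does not activate receptors on other cells, at +0.21 ± 0.08. The other receptors, Notch3 (-0.08 ± 0.11) and Notch4 (+0.0056 ± 0.13), lay near 0. Of 5 fringe and glycosyltransferase genes, which modify the receptors with sugars, Pofut1 was at +0.13 ± 0.12 and Mfng at +0.11 ± 0.10.

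Of 12 genes for endocytosis and ubiquitin marking, Neurl1b was at -0.33 ± 0.15 and Dtx4 at +0.19 ± 0.10. Of 9 receptor cleavage genes measured, the gamma-secretase subunit genes Aph1c and Aph1a were at +0.31 ± 0.14 and -0.25 ± 0.09. Of 11 nuclear complex and corepressor genes measured, all 11 were below 0, beside 55.9% of all genes. Against Math1-Cre over 11 libraries 9 of 11 were below 0, beside 62.3% of all genes. Over 15 libraries 9 of 11 were below 0 against no-Cre (54.1% of all genes) and 7 of 11 against Math1-Cre (60.7%). The lowest against no-Cre over 11 libraries were Rbpj, the DNA-binding partner of Notch (-0.26 ± 0.09), and the corepressor gene Tle4 (-0.23 ± 0.10). Of 7 other HES-related genes Bhlhe41 was at -0.31 ± 0.16 and Hes6, which promotes neuronal differentiation, at -0.22 ± 0.10.

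**Figure D4:**
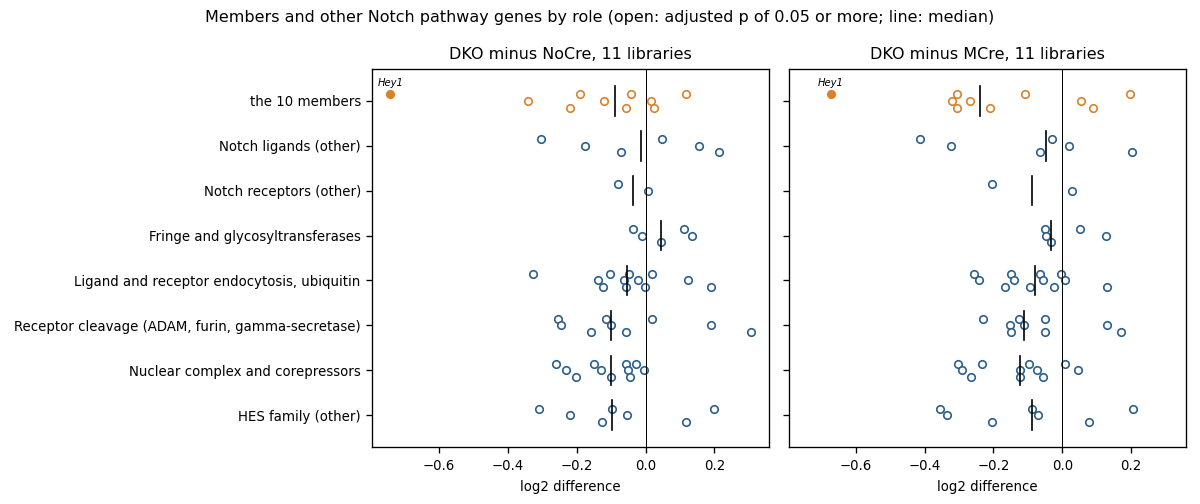
Differences in log2 expression over 11 libraries (x axis) for the 10 members (orange) and 52 other Notch pathway genes (blue) by role (y axis), DKO minus no-Cre on the left and DKO minus Math1-Cre on the right; open points have an adjusted p of 0.05 or more and lines are medians. Hey1, at -0.74 and -0.67, is the 1 filled point in each panel, and the other genes lie between -0.41 and +0.31.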

How the data were processed

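RNA of 15 libraries was measured on arrays, and the deposited values are log2 expression. The authors made them with RMA and Partek 6.6 against mm9, per the submitters' processing notes, which give no order or settings, and replicates are not stated to be pooled. Of 41345 rows, 23521 had 1 gene symbol. For 1082 genes with several rows the row with the highest mean stood for the gene, which left 22180 genes, all tested without a filter on low values. The 10 members and the lists were chosen with earlier results of these data known. One limma model with a mean per label group was fitted (12 residual degrees of freedom, 8 without the 4 libraries), two-sided, with Benjamini-Hochberg adjustment. Nothing in the labels says that litters differ, so a p-value here reflects only how far these samples spread. Sets by the Gsk3a row were described only. Genes named were the members, at most 2 per pathway list by absolute difference, and 3 most like a member. The code was tested on simulated data. The other marker lists (meningeal, differentiating granule neuron, Purkinje, interneuron, oligodendrocyte, microglia, choroid plexus, Hox) are summarised in the closing section. Fits ran in limma 3.58.1 under R 4.3.3, and figures in matplotlib 3.10.9 under Python 3.11.15. The number of arrays limits the precision.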

Additional observations from a re-analysis of the deposited data

Results flagged for a closer look

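Within the label groups of 5, 6 of 30 combinations of member and group had 1 library far from the others, by the gap to the nearest library as a share of the group's range (Dixon's 95% limit). Chance flags about 1 in 20. The share of all genes flagged by this rule was not computed, so the count is not a result about the members. They were Hes1 in Math1-Cre 2 (6.63, nearest 6.52), Hes5 in Math1-Cre 5 (8.23, nearest 8.48), Notch1 in DKO 3 (8.91, nearest 8.70), Dll1 in Math1-Cre 2 (6.44, nearest 6.09), Jag1 in Math1-Cre 5 (8.28, nearest 7.72) and Nrarp in no-Cre 3 (6.46, nearest 6.01).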

How the results depend on the processing

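The count of members past the threshold in DKO minus no-Cre over 15 libraries was 0, and 1 without DKO 1, DKO 3, Math1-Cre 1 and Math1-Cre 2 (the 4 libraries). It was 0 to 2 when single libraries were left out, the 2 without no-Cre 4. Over 11 libraries it was 1, and 2 with array weights, 1 to 2 when single libraries were left out. In DKO minus Math1-Cre it was 0 over 15 libraries and 1 without the 4. Over 11 libraries it was 1, and 0 with median centring, the cg1724 covariate, the array spread covariate or only the groups compared, and 0 to 1 when single libraries were left out. Replicate numbers do not pair the samples: 6 of 15 same-numbered pairs had deviations correlated above 0.1 (-0.30 to 0.30), and 3 of 15 libraries correlated best with their own number. With the replicate block the count over 11 libraries was 0 in both DKO comparisons (Hey1 -0.69, adjusted p = 0.0765, and -0.70, adjusted p = 0.125). The count of members whose Gsk3a sets do not overlap stayed 1 under the 3 settings tried. Hey1 and Hes1 kept their direction in both DKO comparisons under every setting.

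Differences that did not pass changed sign around 0, and the cause was not tested. In DKO minus no-Cre over 15 libraries these were Hey2 (+0.034) and Dll1 (+0.055) with median centring, Notch1 (-0.036) with array weights, Hey2 (+0.039) and Dll1 (+0.017) with the spread covariate, Hes5 (-0.032) and Dll1 (+0.0081) with the mean of rows, and Notch1 (-0.043) and Dll1 (+0.017) without the 4 libraries. In DKO minus Math1-Cre over 15 libraries they were Notch1 (+0.085), Dll1 (+0.035) and Nrarp (+0.0056) with centring, Notch1 (+0.019) after quantile normalization and Dll1 (+0.056) without the 4. In Math1-Cre minus no-Cre over 15 libraries they were Dll1 (-0.0033) and Jag1 (-0.066) with array weights, and Heyl (+0.11), Dll1 (-0.039) and Nrarp (+0.10) without the 4. In DKO minus no-Cre over 11 libraries they were Hey2 (+0.042) and Notch1 (+0.054) with centring, Hey2 (+0.0055) and Notch1 (+0.012) after quantile normalization, Notch2 (-0.023) and Dll1 (-0.064) with array weights, Hey2 (+0.076) with the spread covariate, Hey2 (+0.13) and Dll1 (-0.019) with the replicate block, Notch2 (-0.015) and Dll1 (-0.0087) with cg1724, and Dll1 (-0.059) with the mean of rows. In DKO minus Math1-Cre over 11 they were Notch1 (+0.035) with centring, Notch2 (-0.011) with the block and Dll1 (-0.12) with the mean of rows. In Math1-Cre minus no-Cre over 11 they were Dll1 (+0.058) with the mean of rows and, with the block, Hes1 (+0.029), Hey1 (+0.015) and Notch2 (+0.016).

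Leaving out single libraries gave ranges across 0. In DKO minus no-Cre over 15 libraries these were Hes5 (-0.034 to +0.11), Hey2 (-0.17 to +0.036), Notch1 (-0.041 to +0.048) and Dll1 (-0.11 to +0.048). In Math1-Cre minus no-Cre over 15 they were Hes1 (-0.10 to +0.0038), Heyl (-0.15 to +0.0049), Notch2 (-0.16 to +0.034), Dll1 (-0.024 to +0.15), Jag1 (-0.056 to +0.12) and Nrarp (-0.11 to +0.083). Over 11 libraries they were Hes5 (-0.016 to +0.27), Hey2 (-0.16 to +0.049), Notch2 (-0.070 to +0.10) and Dll1 (-0.040 to +0.11) in DKO minus no-Cre, and Notch2 (-0.066 to +0.32) in DKO minus Math1-Cre. In Math1-Cre minus no-Cre over 11 they were Hes5 (-0.14 to +0.026), Notch2 (-0.29 to +0.091), Dll1 (-0.095 to +0.058), Jag1 (-0.0061 to +0.29) and Nrarp (-0.026 to +0.20).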

Other observations

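The other marker lists had the following mean log2 values in the 5 libraries with a low Gsk3a row and in the 10 with a high row. The 8 genes of differentiating granule neurons were at 7.49 to 7.71 and 7.52 to 7.90. Of that list Gabra6, which encodes a GABA-A receptor subunit, lay at 4.76 to 6.02 in the low set and 3.50 to 3.95 in the high set, and was not above the receptor gene 95th percentile in 11 of 15 libraries. That percentile was 4.65 or more in every library, so all Gabra6 values of the high set lay under it. Grin2c, a glutamate receptor subunit gene, lay at 3.49 to 4.08 and 4.27 to 5.13, and was not above that percentile in 10. Over 11 libraries 1 gene of this list was called higher and 1 lower in DKO, in each DKO comparison. The lowest limma adjusted p was 0.00239 against no-Cre and 0.00661 against Math1-Cre. Of all genes 1.08% and 0.541% were called there. Over 15 libraries 0 of the list were called in either DKO comparison. The 5 meningeal markers were at 7.20 to 7.91 and 6.90 to 8.07, the 5 Purkinje cell markers measured at 9.79 to 9.97 and 9.69 to 10.01, and the 6 interneuron markers at 7.86 to 8.07 and 7.79 to 8.13. The 5 oligodendrocyte markers measured were at 6.99 to 7.29 and 6.89 to 7.45, the 7 microglial markers at 5.37 to 5.97 and 5.12 to 6.11, the 6 choroid plexus and ependymal markers at 7.34 to 8.31 and 6.98 to 8.48, and the 10 Hox genes measured at 3.46 to 4.10 and 3.41 to 4.32. By list mean, the sets of each of these 8 lists overlapped. By label, the choroid plexus and ependymal list had a median difference of -0.76 in DKO minus no-Cre over 15 libraries. Of its genes 6 of 6 were below 0 and 4 at an unadjusted limma p under 0.05, beside 54.1% and 17.4% of all genes. The microglial list had a median of -0.44 in DKO minus Math1-Cre over 15 libraries. Of its genes 7 of 7 were below 0 and 4 at that p, beside 60.7% and 23% of all genes. No gene of these 2 lists passed in limma after adjustment (lowest adjusted p = 0.126 and 0.0900 in these comparisons).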
